A study of Mus musculus with 14 samples.

Results

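Leptomeningeal fibroblasts form the pia and arachnoid, the thin membranes that cover the brain, and 10 genes that mark these cells (Slc22a2, Slc22a6, Slc6a13, Slc13a4, Foxc1, Ogn, Ptgds, Dcn, Lum and Cpz) were followed in whole fetal brain. They were taken by gene symbol from the 41934 genes of the deposited tables, and each symbol had a single row. RNA was sequenced from whole brains of individual male C57BL/6J fetuses at 2 ages, with 4 Dio3+/+ and 2 Dio3-/- brains at the earlier age, E13.5, and 3 Dio3+/+ against 5 Dio3-/- brains at E18.5, all from littermates of matings of Dio3+/- mice. Dio3 encodes the type 3 deiodinase, the enzyme that inactivates thyroid hormone. The inactivating mutation is constitutive, and the allele still makes an mRNA for an inactive protein, so a Dio3 level does not check the genotype labels. The question was whether the genotypes differ within each age in these genes.

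The meninges hold the brain's basement membrane and blood vessels in place during development, and their fibroblasts release chemokine, retinoid and bone morphogenetic protein signals to the cortex below. Pial and arachnoid fibroblasts share a matrix program of collagens and small leucine-rich proteoglycans. They also carry a set of solute carriers that move organic ions, neurotransmitters and sulfate between the cerebrospinal fluid and the blood. Thyroid hormone acts through nuclear receptors that bind DNA and change transcription of nearby genes.

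The deposited tables hold no value for a single library. For each gene they give the authors' mean normalized count over the libraries of an age, and the log2 fold change of Dio3-/- over Dio3+/+ with its standard error (SE). The values of single fetuses, their overlap and the depth of each library were therefore not analysed here. In the paper's clustering at E18.5, a Dio3+/+ sample fell among the Dio3-/- samples, though its principal component analysis separated the genotypes. Levels for each genotype were derived from the mean count, the fold change and the group sizes, and carry no error of their own. Over the genes kept by the filter on low counts, the median SE was 0.11 at E13.5 and 0.09 at E18.5. The mean normalized count of Dio3 was 99.0 at E13.5, with a log2 fold change of -0.89 (SE 0.23, adjusted p = 0.00584). At E18.5 it was 129, with 1.10 (SE 0.15, adjusted p = 8.45e-10). The paper instead reports raised Dio3 expression at E13.5, by qPCR in the same and further samples, females included. The deposited E13.5 change is thus opposite in sign to the paper's report, and the reason was not tested. In whole brain, fewer cells of a type and less RNA per cell cannot be told apart.

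All 10 genes had reads at both ages, and none of their exons overlapped exons of another gene in the GENCODE annotation of GRCm38. Of the 10, 9 passed the filter on low counts at E13.5, where Slc22a2 with a mean of 6.58 did not, and all passed at E18.5. Several of them mark other cells too: Dcn and Lum are made by fibroblasts of skin and other connective tissue, and Ptgds is made by choroid plexus and by oligodendrocytes after birth. The pan-fibroblast genes Col1a1, Col1a2 and Col3a1 were also detected, with mean normalized counts from 3888 for Col3a1 to 4986 for Col1a1 at E18.5.

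Promoter windows are shown for the pair with the largest rise at E18.5, Cpz and Slc22a2, and for the single member window that holds a thyroid hormone receptor hexamer, one of the 3 windows of Slc6a13. Each runs 5′ to 3′ on the strand of its gene, from 250 bases before to 50 after a RefSeq start site (GRCm38.p6), and capitals mark the hexamer on the opposite strand.
Cpz, chr5:35525577-35525876, minus strand: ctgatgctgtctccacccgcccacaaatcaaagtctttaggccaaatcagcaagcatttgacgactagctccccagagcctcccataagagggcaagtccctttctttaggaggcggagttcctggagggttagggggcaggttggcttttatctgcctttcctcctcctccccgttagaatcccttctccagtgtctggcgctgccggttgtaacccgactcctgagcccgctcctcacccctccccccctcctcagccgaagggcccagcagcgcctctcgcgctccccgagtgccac
Slc22a2, chr17:12583939-12584238, plus strand: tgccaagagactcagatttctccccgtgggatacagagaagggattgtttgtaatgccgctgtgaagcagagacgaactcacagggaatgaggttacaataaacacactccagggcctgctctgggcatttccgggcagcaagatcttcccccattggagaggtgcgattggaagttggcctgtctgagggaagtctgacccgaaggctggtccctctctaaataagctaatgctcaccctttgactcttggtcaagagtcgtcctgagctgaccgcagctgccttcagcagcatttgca
Slc6a13, chr6:121303389-121303688, plus strand: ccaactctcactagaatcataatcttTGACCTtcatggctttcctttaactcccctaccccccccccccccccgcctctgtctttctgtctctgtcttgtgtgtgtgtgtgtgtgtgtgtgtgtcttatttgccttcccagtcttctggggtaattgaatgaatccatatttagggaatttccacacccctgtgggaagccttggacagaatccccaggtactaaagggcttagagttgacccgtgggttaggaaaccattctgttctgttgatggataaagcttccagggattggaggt

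RefSeq windows were found for 8 of the 10 genes, 10 windows in all, and Dcn and Lum had none in the table used. The hexamer AGGTCA, which thyroid hormone receptors bind as a repeat, was searched on both strands and lay in 1 of the 10 windows, against 16.3% of all 32851 windows of the same length. In that Slc6a13 window it lay from base -224 to base -219 of the start site, on the minus strand. The direct repeat of this hexamer with a spacer of 4 bases was in none of the 10 windows and in 0.0152% of all windows. The forkhead core GTAAACA was in none of them and in 3.65% of all windows, and TATAAA was in 1, that of Ogn, and in 13.6% of all windows. The Cpz window had 60.3% G and C and 13 CpG pairs, the Slc22a2 window 52.7% and 8, the Slc6a13 window 48.7% and 2, and the median of all windows was 52.7% and 7. The Foxc1 window had the highest values of the 10, 67.3% and 32.

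At E18.5 6 of the 10 genes were higher in Dio3-/- brains and none was lower, at an adjusted p under 0.05. Cpz and Slc22a2 rose most, Dcn, Slc13a4, Ptgds and Ogn rose by less than 0.50 on the log2 scale, and Foxc1, Lum, Slc22a6 and Slc6a13 did not pass the test. Of the 17607 genes kept at this age, 242 were called, which is 1.37%; 169 were higher, which is 0.960%, and 73 were lower, which is 0.415%. The median log2 fold change of the 10 was 0.31, and that of all kept genes was 0.00.

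Cpz, a secreted zinc carboxypeptidase with a frizzled-like domain (chromosome 5 from 35502218 to 35525698, minus strand), had a mean normalized count of 88.7 at E18.5. The derived level was 35.6 in Dio3+/+ and 121 in Dio3-/- brains. Its log2 fold change was 1.76 (SE 0.20, adjusted p = 2.15e-14), a fold of 3.39 with a 95% interval from 2.56 to 4.47. Of all kept genes, 99.97% had a lower log2 fold change. Of 7 related carboxypeptidase genes kept at E18.5, none was called higher and 1, Aebp1, an extracellular matrix protein of fibroblasts, was lower (-0.21, SE 0.06, adjusted p = 0.0240). Cpe, the carboxypeptidase of neuropeptide processing and the most abundant of them, had a log2 fold change of 0.02 (SE 0.05).

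The organic cation transporter Slc22a2 (chromosome 17 from 12584132 to 12628488, plus strand) had a mean normalized count of 40.9 at E18.5, with derived levels of 21.7 in Dio3+/+ and 52.4 in Dio3-/- brains. The log2 fold change was 1.27 (SE 0.27, adjusted p = 0.000458), a fold of 2.42 with an interval from 1.68 to 3.49. Slc22a3, another organic cation transporter of the same gene cluster, had 0.54 (SE 0.16, adjusted p = 0.0580) at a mean count of 102 and did not pass; 9.31% of its exon bases overlap Plg.

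Slc13a4, a sulfate transporter (chromosome 6 from 35267957 to 35308131, minus strand), was higher by 0.33 (SE 0.08, adjusted p = 0.00811), from a derived level of 373 to 468. Slc22a6, the organic anion transporter OAT1, differed by -0.03 (SE 0.09, 95% interval -0.21 to 0.15). Slc6a13, the GABA transporter GAT2, differed by -0.01 (SE 0.08, interval -0.17 to 0.15). The calls among the solute carriers of the group were thus Slc22a2 and Slc13a4, while Slc22a6 and Slc6a13 had values close to 0. Whether the carriers differed from one another was not tested.

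Among the matrix genes, Dcn (decorin, chromosome 10 from 97479609 to 97518143, plus strand), a small leucine-rich proteoglycan that binds collagen fibrils, was higher by 0.35 (SE 0.07, adjusted p = 9.22e-05). Its derived level went from 886 to 1125. Ogn (osteoglycin, chromosome 13 from 49608046 to 49624501, plus strand), of the same family, was higher by 0.24 (SE 0.07, adjusted p = 0.0389). Lum (lumican, chromosome 10 from 97565128 to 97572703, plus strand), a corneal and connective tissue keratan sulfate proteoglycan, had 0.36 (SE 0.11, adjusted p = 0.0701), a size like that of Dcn with a wider interval of 0.14 to 0.58. Ptgds, the prostaglandin D2 synthase that is also a lipocalin carrier of the cerebrospinal fluid (chromosome 2 from 25466709 to 25470046, minus strand), was higher by 0.30 (SE 0.06, adjusted p = 3.63e-05), from a derived level of 4575 to 5639. Foxc1, the forkhead transcription factor that meningeal development needs (chromosome 13 from 31806633 to 31812476, plus strand), had 0.14 (SE 0.07, adjusted p = 0.589).

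The calls at E18.5 rested on a normal reference for the ratio of each change to its SE. When a t distribution with 6 residual degrees of freedom took its place, none of the 10 genes was called, and adjusted p ran from 0.317 for Cpz to 0.999 for Ogn among the 6. How many of all kept genes stayed called with the t distribution was not counted. Ogn was also lost when the filter on low counts was left out (adjusted p = 0.0708) and when the statistic was divided by its spread (0.0579). A minimum mean count of 50 left Slc22a2 untested and 5 genes called.

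**Figure D1:**
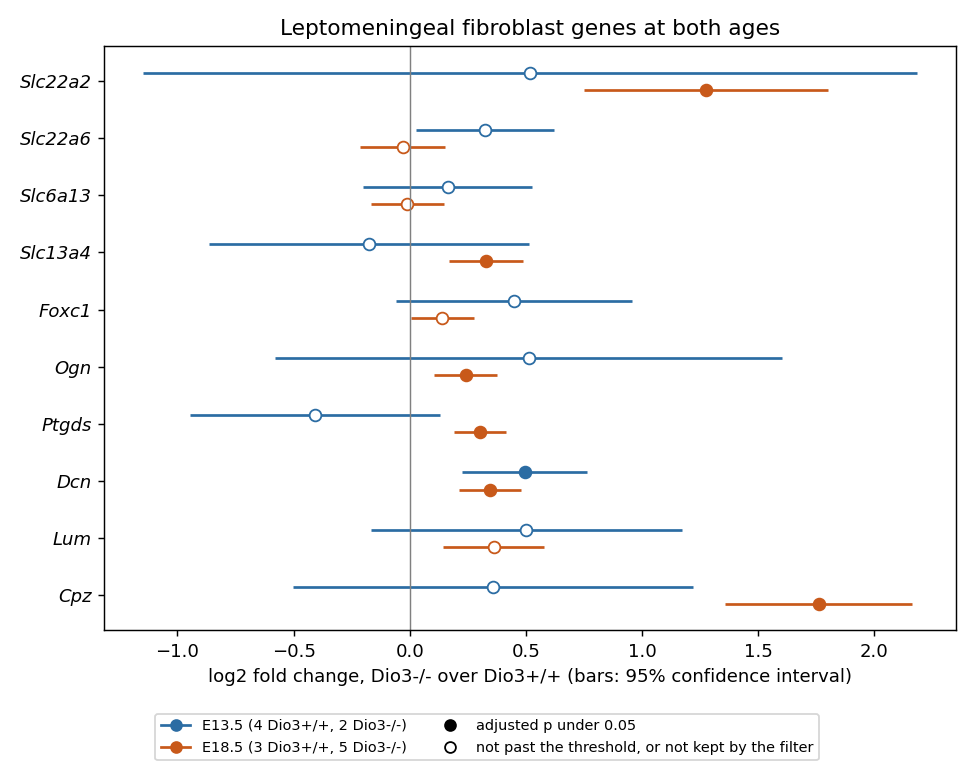
Log2 fold change of Dio3-/- over Dio3+/+ (horizontal axis) for each of the 10 genes at E13.5 and E18.5. Points are the deposited estimates and bars their 95% intervals. At E18.5 Cpz (1.76) and Slc22a2 (1.27) lie apart from the other genes, and the E13.5 interval is wider than the E18.5 interval for every gene.

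At E13.5 Dcn was the single gene of the 9 kept that was called, and it was higher in Dio3-/- brains, by 0.50 (SE 0.14, adjusted p = 0.0146). Its derived level was 812 in Dio3+/+ and 1145 in Dio3-/- brains. Of the 16436 genes kept at this age, 585 were called, which is 3.56%; 203 were higher, which is 1.24%, and 382 were lower, which is 2.32%. The 9 genes had a median log2 fold change of 0.36, 7 were above 0, and the median of all kept genes was -0.01. The call of Dcn was lost under a t distribution with 4 residual degrees of freedom (adjusted p = 0.962) and when the statistic was divided by its spread (adjusted p = 0.0855).

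The other 8 did not pass. Among the carriers, Slc22a6 had 0.32 (SE 0.15, adjusted p = 0.341), Slc6a13 0.16 (SE 0.19) and Slc13a4 -0.17 (SE 0.35). Foxc1 had 0.45 (SE 0.26), Ogn 0.51 (SE 0.56), Lum 0.50 (SE 0.34), Cpz 0.36 (SE 0.44) and Ptgds -0.41 (SE 0.27). Slc22a2, which the filter removed, had 0.52 (SE 0.85). Every one of these intervals apart from that of Slc22a6 (0.03 to 0.62) included 0.

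Several of these E13.5 estimates had large errors for their level. The SE of Ogn was 0.56, while genes with a mean between its own mean divided by 2 and multiplied by 2 had a median SE of 0.12. For Lum the values were 0.34 and 0.08, for Foxc1 0.26 and 0.08, and for Dcn 0.14 and 0.09. The SE of Ogn, Lum and Foxc1 was 9.30, 9.36 and 7.08 times the error that counting alone gives at their levels. Of all genes kept at E13.5, 0.98% had an SE more than 2 times that of genes of like mean, against 3 of the 9 here. The same held at E13.5 for 8 of 18 other leptomeningeal and pan-fibroblast markers, 6 of 12 choroid plexus markers, 4 of 9 cartilage and bone markers, 4 of 12 head mesenchyme markers and 4 of 12 meningeal signals, and for 0 or 1 gene in each other list. At E18.5 it held for none of the 10 genes and for 0.523% of all kept genes.

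None of the 10 genes passed the test of a difference between the ages in its change with genotype. The log2 fold change at E18.5 minus that at E13.5 was 1.40 for Cpz (SE 0.48, adjusted p = 0.121), 0.71 for Ptgds (SE 0.28, adjusted p = 0.238) and -0.35 for Slc22a6 (SE 0.18, adjusted p = 0.485). These 3 had an unadjusted p under 0.05 in this Wald test, and 347 of 17793 genes were called over all, 1.95%. Slc22a2 was below the minimum count at E13.5 and had no adjusted p, with a difference of 0.76 (SE 0.89). The rise of Cpz at E18.5 is therefore not shown to differ from its value at E13.5.

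Levels per kilobase of exon gave the order of abundance within an age. At E13.5 Lum led with a mean normalized count of 437 per kilobase, followed by Foxc1 (184), Dcn (158) and Ogn (155), then Slc22a6 (59.9), Slc6a13 (55.4), Ptgds (39.5), Cpz (11.5), Slc13a4 (8.44) and Slc22a2 (2.65). At E18.5 Ptgds led with 3178 per kilobase, followed by Ogn (283), Slc6a13 (189), Dcn (177), Foxc1 (117), Slc22a6 (105), Slc13a4 (95.5), Lum (89.2), Cpz (39.5) and Slc22a2 (16.5). The tables give no spread for a level, so whether neighbours in either order differ was not tested.

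From E13.5 to E18.5 the mean of Ptgds was 99.0 times higher and that of Slc13a4 13.9 times, after division by the median ratio of 0.812 over 13433 genes. Slc22a2 was 7.65 times higher, Cpz 4.23, Slc6a13 4.20, Ogn 2.24, Slc22a6 2.16 and Dcn 1.38. Foxc1 (0.787 times) and Lum (0.251 times) were lower at E18.5. The ages were normalized separately and not tested against each other, so these ratios are a description.

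**Figure D2:**
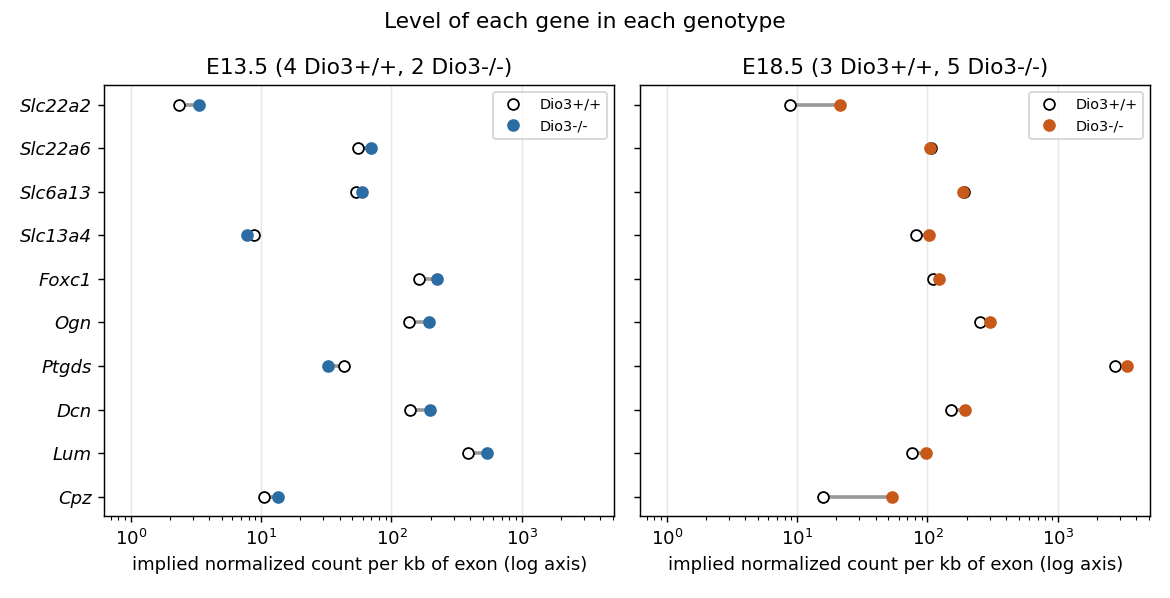
Level of each gene in Dio3+/+ and Dio3-/- brains at E13.5 and E18.5 (mean normalized count per kilobase of exon, log axis), derived from the deposited mean and fold change. The levels of Ptgds at E18.5 stand above all others, with a mean of 3178, and Cpz and Slc22a2 show the widest gaps between genotypes at that age.

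Other genes of the same cells and functions were read from 16 lists. Of 20 other leptomeningeal and pan-fibroblast markers kept at E18.5, 3 were higher and none lower, and the median log2 change was 0.02: Igfbp6, an insulin-like growth factor binding protein (1.79, SE 0.25), Mgp, matrix Gla protein (0.85, SE 0.14) and the collagen Col3a1 (0.17, SE 0.04). Of these 20, 10 were above 0 and 10 below, the latter with Col1a1 (-0.12, SE 0.24) and Col1a2 (-0.01, SE 0.12). At E13.5 none of 18 was called (6 had an unadjusted Wald p under 0.05) and the median was 0.41. Mgp had 1.54 (SE 0.49) at that age, with an adjusted Wald p of 0.0503, just over the threshold. Over all kept genes, 1969 of 16436 at E13.5 and 1415 of 17607 at E18.5 had an unadjusted Wald p under 0.05. The unadjusted counts of this and the later lists are to be read against these. Of 11 arachnoid markers kept at E18.5, 3 were higher and the median was 0.19: the exporter Slc47a1 (1.25, SE 0.23), the anion transporter Slc22a8 (0.32, SE 0.08) and the imino acid carrier Slc6a20a (0.35, SE 0.09), of whose exon bases 14.3% overlap other genes. At E13.5 Crabp2, a retinoic acid binding protein, was the single one called of 10 (0.56, SE 0.13).

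Among 12 signals made by the meninges, 2 were higher at E18.5, the chemokine Cxcl12 (0.36, SE 0.07) and the retinoic acid degrading enzyme Cyp26b1 (0.26, SE 0.06), with a median of 0.06. None was called at E13.5 (2 had an unadjusted Wald p under 0.05; median 0.25). Of 17 related solute carriers kept at E18.5, 4 were higher and the median was 0.24. They were Slc47a1, Slc22a8 and Slc6a20a, already named, and the dicarboxylate transporter Slc13a3 (0.34, SE 0.08). At E13.5 none of 14 was called, with 4 at an unadjusted p under 0.05 and a median of 0.15.

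Other small leucine-rich proteoglycans, the family of Dcn, Lum and Ogn, gave no calls. Of the 10 kept at E18.5 none was called in the Wald test (1 had an unadjusted p under 0.05) and 7 of 10 were below 0, with a median of -0.13. At E13.5 none of 8 was called (1 unadjusted; median 0.19). Lum lies 47.0 kb from Dcn and 34.2 kb from Kera, and Ogn 15.2 kb from Omd, and at E18.5 Kera was below the filter and Omd (0.18, SE 0.25) did not pass. Of the prostaglandin and lipocalin genes beside Ptgds, none of 8 was called at E18.5 (2 unadjusted; median 0.00) and none of 5 at E13.5 (3 unadjusted; median 0.31). Of the forkhead genes beside Foxc1, none of 9 at E18.5 and none of 8 at E13.5 was called, with 0 unadjusted at both ages and medians of 0.03 and 0.12.

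Among markers of other tissues, those of cartilage and bone gave the most calls at E13.5. Of the 9 kept, 5 were higher and none lower. The derived levels of all 12 listed genes, kept or not, summed to 1.40 times the Dio3+/+ value in Dio3-/- brains. The 5 were the cartilage matrix genes Acan (2.97, SE 0.64), Matn1 (2.34, SE 0.71), Cnmd (1.82, SE 0.32) and Col9a1 (1.96, SE 0.59), and Col2a1 (0.70, SE 0.21). The median of the 9 was 1.01, and Sox9, which neural progenitors also express, had 0.02 (SE 0.06). Head mesenchyme and dermis markers had a median of 0.60 with none of 12 called (3 unadjusted Wald p under 0.05; Prrx1 0.62, SE 0.51; Dlk1 -0.17, SE 0.11). The 6 skeletal muscle markers kept had a median of 0.42 with none called (1 unadjusted; Myh3 1.09, SE 0.37; Myh8 0.40, SE 0.27). Summed over all listed genes, the levels in Dio3-/- brains were 1.39 times the Dio3+/+ value for 12 head mesenchyme markers, 1.54 for 10 muscle markers and 1.36 for the 10 leptomeningeal genes. For the 20 other leptomeningeal and pan-fibroblast markers the ratio was 1.48, and for the 12 arachnoid markers 1.31. The most abundant genes behind the 1.48 were Col1a1 (0.70, SE 0.51), Col3a1 (0.63, SE 0.33) and Col1a2 (0.81, SE 0.44), none of them called. Such a sum is weighted by abundance and carries no error. None of the cartilage, head mesenchyme and muscle lists had a marker at 0 throughout, and their part in the fibroblast values was not tested.

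At E18.5 the cartilage, mesenchyme and muscle lists gave no higher calls, and summed levels are again over all listed genes. None of the 9 cartilage and bone markers was called (2 had an unadjusted Wald p under 0.05), and the summed level of the list was 0.916 times the Dio3+/+ value, with -0.14 (SE 0.05) for Sox9 and -0.10 (SE 0.21) for Col2a1. Head mesenchyme had none higher and 1 lower of 10, Postn, a matrix protein of periosteum (-0.34, SE 0.08), with a summed ratio of 0.916, and Prrx1 had -0.02 (SE 0.08). Of 4 muscle markers kept none was called, with 0 at an unadjusted p under 0.05 and a ratio of 0.847 for the list (Acta1 -0.12, SE 0.16; Myh8 -0.44, SE 0.29). The 10 leptomeningeal genes had a ratio of 1.21 at that age, of which Ptgds made up most of the counts. For the 20 other leptomeningeal and pan-fibroblast markers the ratio was 0.997, and for the 12 arachnoid markers 1.16. Of 12 choroid plexus markers 1 was higher, Kl (0.49, SE 0.14), while Ttr, the transthyretin that marks this epithelium, had 0.06 (SE 0.20) and Otx2 -0.16 (SE 0.08).

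Vessel and epithelial markers gave few calls. Of mural cell markers, Acta2 (1.06, SE 0.24) and Vtn (0.30, SE 0.09) were higher among 9 at E13.5 and Rgs5, a pericyte regulator of G proteins (0.29, SE 0.04), among 10 at E18.5, and Notch3, the other most abundant gene, had 0.06 (SE 0.05) and -0.10 (SE 0.05) at the earlier and later age. Of 12 endothelial markers none was called at E13.5 (0 unadjusted Wald p under 0.05) and Flt1, a receptor of vascular endothelial growth factor, was higher at E18.5 (0.34, SE 0.08). The abundant endothelial genes Slc2a1 and Kdr had -0.03 (SE 0.06) and 0.02 (SE 0.08) at E13.5, and 0.13 (SE 0.06) and 0.13 (SE 0.07) at E18.5. Choroid plexus markers at E13.5 had none called of 12 (0 unadjusted), a median of -0.16 and a summed level of 0.710 times the Dio3+/+ value, with -0.94 (SE 0.63) for Ttr and 0.08 (SE 0.24) for Otx2. Surface epithelium markers had none called of 6 at E13.5 and of 5 at E18.5 (0 unadjusted at both), with medians of 0.17 and 0.19. Epcam had 0.03 (SE 0.35) and 0.41 (SE 0.32) at E13.5 and E18.5, Krt18 had 0.16 (SE 0.34) at E13.5 and Perp 0.19 (SE 0.11) at E18.5. T3-responsive brain genes, which include Mgp and Dio3, were higher in 6 of 6 at E18.5 with a median of 0.91, and at E13.5 1 of 6 was higher, Klf9 (0.76, SE 0.19), and 1 lower, Dio3. At E18.5 Klf9 had 1.52 (SE 0.07), Hr 0.97 (SE 0.09) and Dbp 0.80 (SE 0.13).

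**Figure D3:**
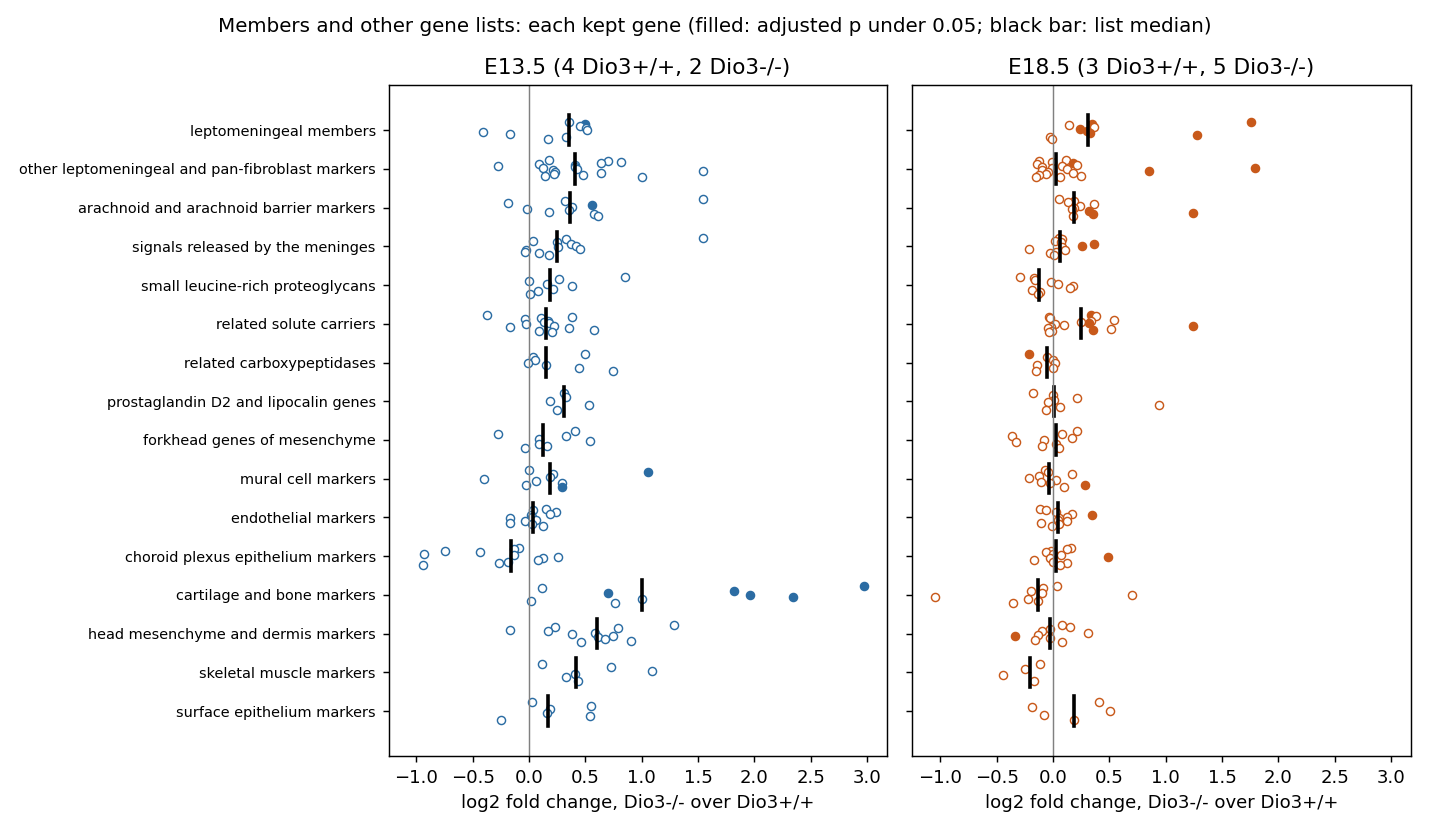
Log2 fold change of Dio3-/- over Dio3+/+ (horizontal axis, shared by both panels) of each kept gene of the leptomeningeal members and 15 other lists at E13.5 and E18.5. Filled points passed an adjusted p of 0.05 and black bars are list medians, and the cartilage and bone list has a median of 1.01 at E13.5 and -0.14 at E18.5.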

How the data were processed

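Whole-brain RNA of 14 male fetuses was grouped by the genotype and age in the labels. The authors aligned reads with STAR 2.5.3a to GRCm38 (GENCODE VM22), counted them per gene with HTSeq without strand, used ComBat-seq for 2 sequencing batches and compared genotypes within each age by DESeq2 1.30.1. The batch of a library is not given in the sources used here, so within-batch values could not be computed, and the adjustment can change both fold changes and errors.

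The deposited tables hold the results of the authors' own comparisons and nothing per library. The deposited mean normalized count is a signal, the average over an age after size-factor division. Deposited fold changes and their SE are in log2 units. Each deposited p-value came from a two-sided Wald test with a normal reference. These mean, fold change, SE and p-value columns are the only measurements given, so they were used, and the means, fold changes and SE printed for a gene within an age are the authors'. The authors' adjusted p-values and significance calls were not used. The number of per-sample columns left unused was 0.

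Computed here (R 4.3.3): a filter on the mean count (50 quantiles, minimum kept 21.7 at E13.5 and 13.8 at E18.5), Benjamini-Hochberg adjustment over all kept genes, calls at an adjusted p under 0.05, 95% intervals, derived levels that assume equal size factors, and the difference between ages (minimum mean of 10 at both). Scripts were tested on simulated data. Exon lengths and coordinates are from GENCODE M21 (GRCm38), a release older than the authors'. The members and lists were chosen with earlier results of these data known. The text names all members and, from each list, called genes (at most 4 an age) and the 2 most abundant genes of other cell types. Further listed genes (Slc22a3, Kera, Omd, Cpe, Col1a1, Col1a2, Matn1, and Mgp and Col3a1 at E13.5) were named after their values were seen. Figures were drawn with Python 3.11.15 and matplotlib 3.10.9.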

Additional observations from a re-analysis of the deposited data

How the results depend on the processing

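No paired analysis was possible because the deposited tables hold no values per library; for the same reason leaving out each replicate was not run. The count of members called fell from 1 to 0 at E13.5 and from 6 to 0 at E18.5 with a t distribution, whose residual degrees of freedom are 4 and 6. It was 0 at E13.5 with the statistic divided by its spread, and 0 at E13.5 and 2 at E18.5 when an absolute log2 fold change over 0.5 was also needed. Calls over all genes were not counted under these alternatives. With the t distribution, Cpz at E18.5, whose change was 8.59 times its SE, had an adjusted p of 0.317. Every kept gene with a smaller absolute ratio at that age was therefore not called either. The same held at E13.5 below the ratio of Dcn, 3.60 (adjusted p = 0.962). The loss of calls under t is thus not particular to the members. Whether they lose calls more than other genes under the other alternatives is not known. No other alternative moved either count by over 1.5 times, and the count of members differing between ages stayed 0 under each. The direction of a member was not put to a test by these alternatives. They kept the deposited fold changes, apart from centring on the median of all kept genes (-0.01 at E13.5 and 0.00 at E18.5). Of the single values, 51 at each age kept their side of the threshold, and 2 at E13.5 and 8 at E18.5 lost their call, besides Slc22a2 at E18.5, which a minimum mean count of 50 removed from the test. The standard errors rest on 2 Dio3-/- libraries at E13.5 and 3 Dio3+/+ libraries at E18.5, after the authors' batch adjustment. The p-values follow from the fold changes and these errors, and are no direct measure of the spread between fetuses.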
